A study of Caenorhabditis elegans with 7 samples.

Results

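Cytochrome P450 genes of Caenorhabditis elegans were examined in first-stage (L1) larvae with and without a functional ahr gene. The members are the rows of the authors' deposited value table whose annotation gives exactly 1 gene symbol starting with cyp-, which were 7 of 1290 rows and 7 of the 961 rows with a gene. They are cyp-34A5, cyp-35C1, cyp-33C5, cyp-14A1, cyp-25A1, cyp-13A1 and cyp-25A4, out of 80 genes with a cyp- symbol in the WBcel235 gene table, 74 of them protein-coding. The series compared 4 samples of a strain with a nonfunctional ahr gene, called ahr-mutant, with 3 of the N2 wild type, all hatched and grown to L1 with E. coli as food. The sources used here do not name the allele. Total RNA of whole larvae was labelled with Cy3 and read on 1 array per sample, so fewer cells of a type and less RNA per cell cannot be told apart. The titles call only the mutant samples biological samples, and separate cultures are not stated, so a p-value covers the spread among these 7 samples, which may be technical.

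Cytochrome P450 enzymes are haem-containing monooxygenases. They insert an oxygen atom into lipophilic compounds, both foreign chemicals and the animal's own fatty acids and steroids, and the products are then conjugated and exported. In vertebrates the aryl hydrocarbon receptor is a transcription factor best known for switching on P450 genes when it binds planar aromatic compounds. The worm gene ahr-1 encodes its counterpart, which is known mainly for roles in neurons. Worm P450 genes have expanded into several families: the cyp-14, cyp-33, cyp-34 and cyp-35 families resemble vertebrate CYP2 enzymes, and the cyp-13 and cyp-25 families resemble vertebrate CYP3 enzymes. Several cyp-35 genes are known for their response to foreign chemicals. The ahr-1 gene itself has no named spot among those used, so the mutation could not be checked on these arrays.

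The 7 arrays had between 21942 and 22593 positive signals, with median signals from 52277 to 90919 intensity units. ahr-mutant replicate 1 was deposited with its spots in a different order from the other 6. As deposited, its rank correlations with those lay between -0.0117 and 0.0354. After its spots were placed by print order and signal they lay between 0.68 and 0.81, against 0.632 to 0.804 among the other arrays. The placing kept only stretches of spots that followed the mean of the other 6 arrays. These correlations are therefore no independent check of it. The differences are given below with and without this array.

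The P450 genes shared no common direction of difference. cyp-34A5, cyp-25A1 and cyp-35C1 had higher means in ahr-mutant larvae, and cyp-13A1, cyp-14A1 and cyp-33C5 had lower means. The sizes ran from 3.33-fold higher to 2.52-fold lower. None of the 6 genes with a spot of their own passed an adjusted p of 0.05 over the 22502 spots tested (limma), a threshold that 0.00889% of all spots passed. At an unadjusted p under 0.05, 2 were higher and 3 lower. Of all spots 4.08% were higher and 3.51% lower at this level. Spots that alone match 1 row of the authors' table, and no other row, are called the table's spots here. Of the 1053 tested, 29.7% were higher and 34.4% lower. The authors drew up the table from these samples, so the direction of a member is not independent evidence. The median log2 difference of the 6 genes was -0.17 and the mean was 0.06, so they differ in sign, beside a median of 0.016 over all spots tested and -0.52 over the 781 named spots. Both groups of related enzymes held genes of each direction: of the CYP2-like members 2 had higher and 2 lower means, and of the CYP3-like members 1 was higher and 1 lower.

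**Figure D1:**
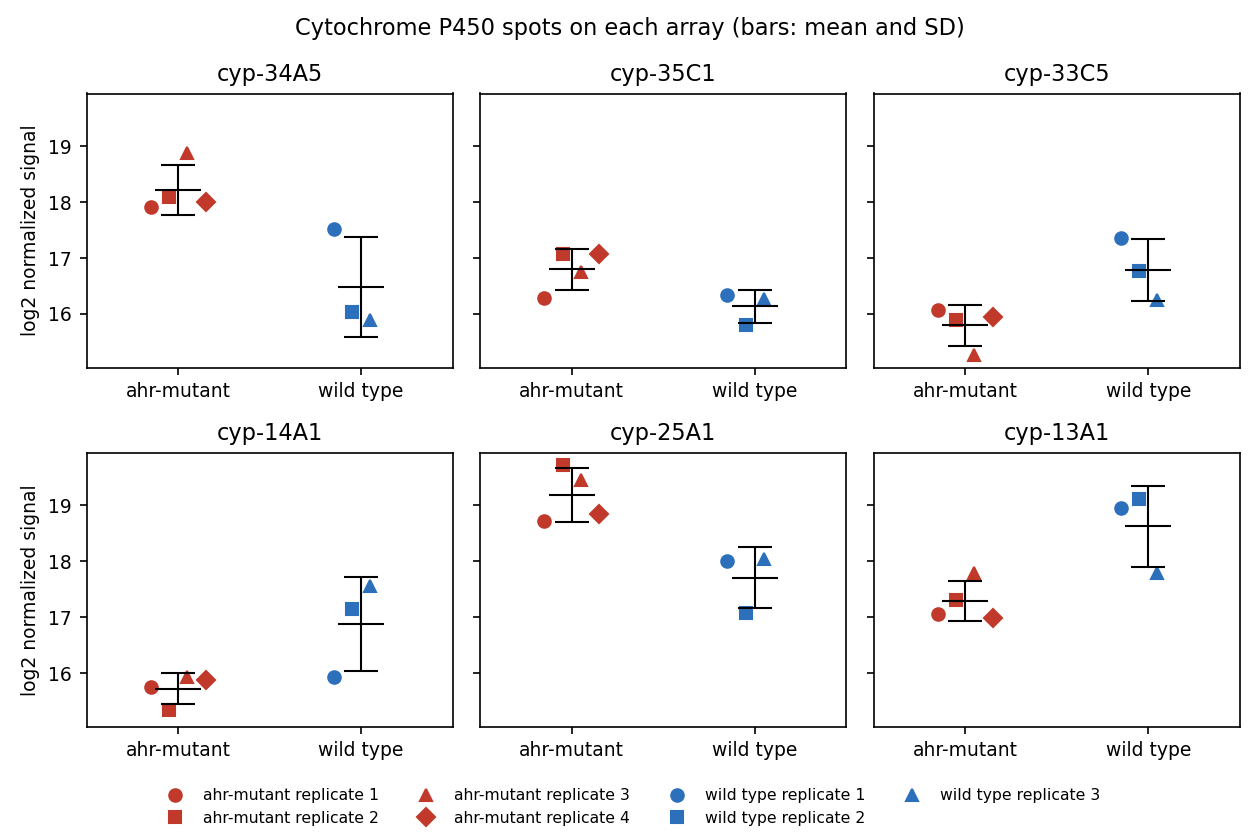
Log2 quantile-normalized signal of the 6 P450 genes that have a spot of their own, for each of the 4 ahr-mutant arrays (red) and 3 wild-type arrays (blue). Symbols mark the replicate, long bars the mean and whiskers the SD. The strains lie apart for 5 of the 6 genes and overlap for cyp-35C1, and the gaps for cyp-13A1 and cyp-14A1 are too small to see.

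Among the CYP2-like genes, cyp-34A5 had the largest difference over all 7 arrays. Its wild-type signals on the log2 scale, quantile-normalized, were 17.52, 16.04 and 15.88 in replicates 1 to 3, and its ahr-mutant signals were 17.91, 18.09, 18.88 and 17.995 in replicates 1 to 4. On this scale every mutant array was above every wild-type array. Wild type replicate 1 stood far above the other 2 wild-type signals, which lay near the middle of their own arrays. In deposited intensity units the mutant signals ran from 235332 to 676658 and the wild-type signals were 187997, 49886 and 57798. These units are not scaled between arrays, whose median signals were 62372.5 to 90919 in the mutants and 52277 to 66600 in the wild type. In the authors' deposited ratios the strains overlapped, with 0.954 in ahr-mutant replicate 4 and 1 in wild type replicate 1. The mutant mean was 18.22 ± 0.45 (SD, n = 4) and the wild-type mean 16.48 ± 0.90 (SD, n = 3). The log2 difference was 1.74 ± 0.47 (SE), or 3.33-fold higher with a 95% interval of 1.61-fold to 6.90-fold (limma adjusted p = 0.444). On the quantile-normalized signals the exact two-sided permutation p was 0.0286, the smallest that the 35 splits of 7 arrays allow.

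cyp-35C1 belongs to the family in which several genes are known to respond to foreign chemicals. Its mutant signals were 16.29, 17.07, 16.75 and 17.07, and its wild-type signals 16.35, 15.80 and 16.27 on the same log2 scale. The strains overlapped, because ahr-mutant replicate 1 lay below wild type replicate 1. The log2 difference was 0.66 ± 0.34 (SE), 1.58-fold higher with a 95% interval from 0.925-fold to 2.70-fold, which includes no difference (limma adjusted p = 0.686; exact permutation p = 0.0857). On this log2 scale the 5 other genes each had an exact permutation p of 0.0286.

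cyp-14A1 had mutant signals of 15.76, 15.33, 15.92 and 15.88 and wild-type signals of 15.93, 17.15 and 17.56. The mutant arrays lay close together, while wild type replicate 1 was at the level of the mutants and 0.0092 log2 units above the highest of them. The gene was 2.23-fold lower in the mutants (log2 difference -1.16 ± 0.43, SE; 95% interval 1.15-fold to 4.35-fold lower; limma adjusted p = 0.605). Without wild type replicate 1 its log2 difference was -1.63, the farthest from 0 among the fits that leave out 1 array.

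cyp-33C5 is a member of a family in which several genes lie side by side. Its mutant signals were 16.07, 15.89, 15.26 and 15.95, and its wild-type signals 17.36, 16.76 and 16.25. The strains lay apart by 0.18 log2 units, with wild type replicate 3 nearest to the mutants and ahr-mutant replicate 3 the lowest array. The mean was 2.00-fold lower in the mutants (log2 difference -0.997 ± 0.380, SE; 95% interval 1.11-fold to 3.61-fold lower; limma adjusted p = 0.613).

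Among the CYP3-like genes, cyp-25A1 had the widest gap between the strains. Its mutant signals were 18.71, 19.72, 19.45 and 18.84 and its wild-type signals 18.005, 17.08 and 18.04. The lowest mutant array was 0.67 log2 units above the highest wild-type array. Within each array the spot ranked between the 90.0th and 96.2th percentile of positive signals in the mutants and between the 70.5th and 83.6th in the wild type. The mutant mean was 19.18 ± 0.48 (SD, n = 4) and the wild-type mean 17.71 ± 0.54 (SD, n = 3). The difference was 1.47 ± 0.40 on the log2 scale (SE), 2.77-fold higher with a 95% interval of 1.48-fold to 5.18-fold (limma adjusted p = 0.446).

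cyp-13A1 went the other way. Its mutant signals were 17.05, 17.31, 17.78 and 16.99, and its wild-type signals 18.96, 19.12 and 17.79. Wild type replicates 1 and 2 were far above all mutants, but wild type replicate 3 was only 0.0034 log2 units above ahr-mutant replicate 3. The mutant mean was 17.29 ± 0.36 (SD, n = 4) and the wild-type mean 18.62 ± 0.73 (SD, n = 3). The gene was 2.52-fold lower in the mutants (log2 difference -1.34 ± 0.41, SE; 95% interval 1.33-fold to 4.80-fold lower; limma adjusted p = 0.535).

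The seventh gene, cyp-25A4, could not be tested as a gene of its own. The row's values equal the mean of 2 spots, and the row of ins-4, which encodes an insulin-like peptide, holds the same values. The sources used here do not say which of the spots carries cyp-25A4. In the authors' deposited table its ratios were 0.731, 1 and 0.801 in ahr-mutant replicates 2 to 4 and 1.11, 1.08 and 1.66 in the wild type, with no value for ahr-mutant replicate 1. The first of these spots (cyp-25A4 or ins-4) had log2 signals of 14.91, 14.99 and 15.20 in the mutants (replicates 2 to 4) and 15.62, 15.27 and 16.58 in the wild type, a 1.73-fold lower mean (limma adjusted p = 0.686). The second had 15.31, 15.43, 16.16 and 15.11 in the mutants and 15.88, 15.94 and 16.06 in the wild type, a 1.37-fold lower mean (limma adjusted p = 0.715). The strains lay apart in the first and overlapped in the second. cyp-25A1 and cyp-25A4 are near neighbours on chromosome III, with 5 protein-coding genes between them, cyp-25A2 and cyp-25A3 among these.

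After quantile normalization the strains did not overlap for 5 of the 6 genes, against 8.74% of the 17129 spots measured on all arrays. Among the table's own spots with a value on every array 79% were apart in this way, so the P450 share is near that of the table it was drawn from. The separation depended on the scaling. In the authors' deposited ratios cyp-34A5 overlapped, with 0.954 in ahr-mutant replicate 4 and 1 in wild type replicate 1. So did cyp-13A1 (1.17 in ahr-mutant replicate 3, 1 in wild type replicate 3) and cyp-14A1 (1.001 in ahr-mutant replicate 4, 1 in wild type replicate 1). cyp-25A1 and cyp-33C5 lay apart there too. Without ahr-mutant replicate 1 the log2 differences were 1.84 for cyp-34A5, 1.63 for cyp-25A1 and 0.83 for cyp-35C1. They were -1.26 for cyp-13A1, -1.17 for cyp-14A1 and -1.09 for cyp-33C5, with limma adjusted p from 0.323 to 0.532. All 6 then had an unadjusted p under 0.05, as did 2056 of 22390 spots.

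**Figure D2:**
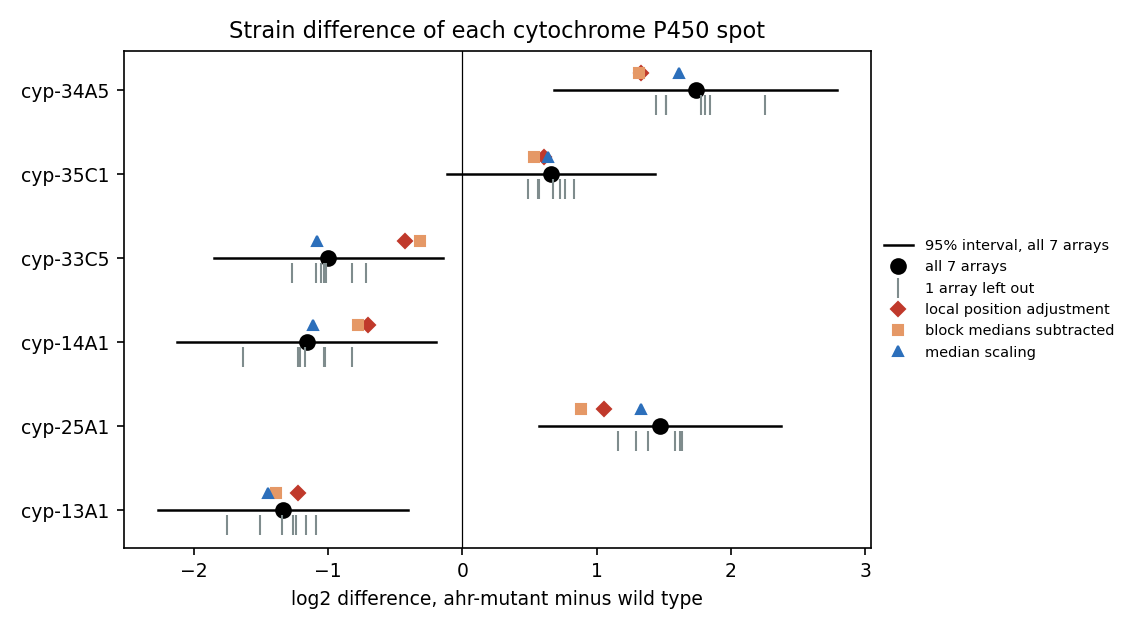
Log2 difference between the strains (ahr-mutant minus wild type) for each P450 gene. Black points and lines give the value and 95% interval over all 7 arrays, grey ticks the fits without 1 array, and coloured symbols other ways of scaling the signals or adjusting for place on the slide. No symbol crosses 0, and the interval of cyp-35C1 includes 0.

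The strain difference varied with the place of a spot on the slide. The slide holds 12 rows of blocks, and over spots outside the authors' table the median log2 difference went from -0.46 in the first row to 0.50 in the last. The arrays of a strain were not alike in this. From row 1 to row 12 the median deviation from the spot mean rose from -0.91 to 0.66 in ahr-mutant replicate 3. It rose less in ahr-mutant replicates 1 and 2 and fell from 0.16 to -0.19 in replicate 4. It fell in every wild-type array, most in wild type replicate 2 (from 0.43 to -0.28). The 3 P450 genes with lower means lie in slide rows 1 (cyp-33C5), 5 (cyp-14A1) and 6 (cyp-13A1). Spots outside the table had medians of -0.46, -0.20 and -0.085 in those rows. The 3 with higher means lie in rows 8 (cyp-34A5 and cyp-35C1) and 9 (cyp-25A1), where those medians were 0.11 and 0.23. Each gene's difference had the sign of its row's median and was larger than it.

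A local position adjustment, which subtracts from each array the median deviation of the surrounding spots, left all 6 directions as they were. With it cyp-34A5 was 2.52-fold higher, cyp-25A1 was higher by 2.08-fold, and cyp-13A1 was 2.33-fold lower. These are the 3 genes whose strains still did not overlap, against 7.85% of all spots and 46.9% of the table's spots. cyp-35C1 was then 1.53-fold higher, cyp-14A1 1.62-fold lower and cyp-33C5 1.34-fold lower, with overlapping strains. The largest local value subtracted from a P450 spot was -1.02, for cyp-33C5 in ahr-mutant replicate 3, whose signal went from 15.26 to 16.28. With the adjustment the limma adjusted p of the 6 genes lay between 0.328 and 0.847. When block medians were subtracted instead, cyp-25A1 was 1.84-fold higher and cyp-33C5 1.25-fold lower.

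**Figure D3:**
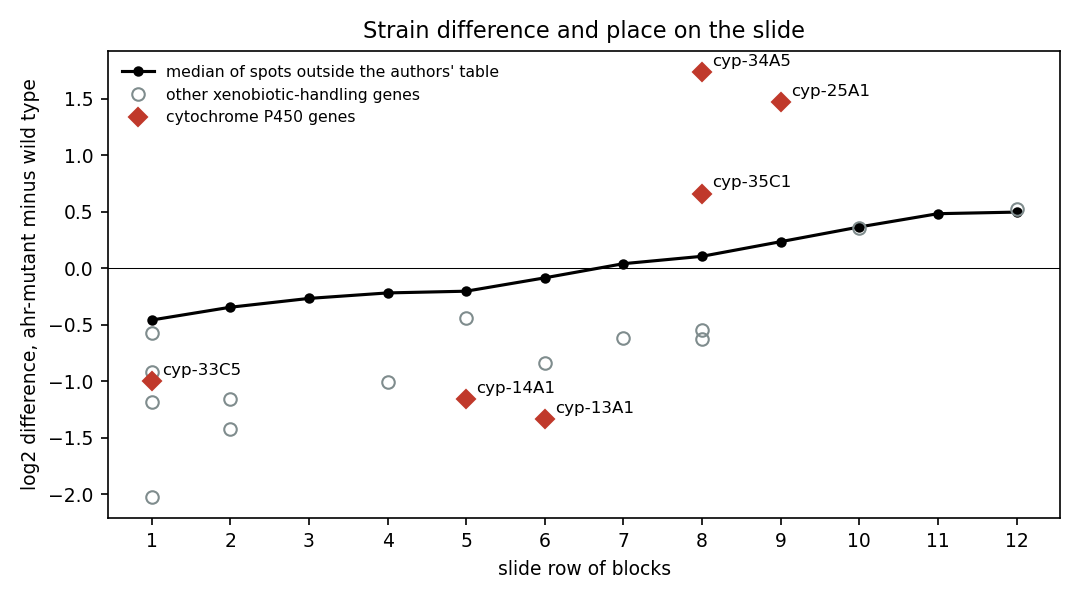
Log2 difference between the strains against the slide row of blocks that holds the spot. The black line joins the medians of spots outside the authors' table, red diamonds are the P450 genes and open circles the other xenobiotic-handling genes. The line climbs from -0.46 to 0.50, and the P450 genes lie below it in rows 1, 5 and 6 and above it in rows 8 and 9.

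Several of the P450 genes lie near other P450 genes in the WBcel235 gene order. Within 10 protein-coding genes on either side, cyp-34A5 had 9 other cyp genes, of the cyp-34 and cyp-35 families, cyp-13A1 had 7, cyp-33C5 had 4, cyp-14A1 had 3 and cyp-25A1 had 3. cyp-35C1 had 0. cyp-34A5, cyp-33C5 and cyp-35C1 lie on chromosome V, cyp-13A1 on II and cyp-14A1 on X. Apart from cyp-25A4, no cyp gene counted here is among the named rows. The probe sequences are not in the sources used here, so a shared signal between close paralogs could not be checked.

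The named genes whose signal followed a P450 gene most closely over the 7 arrays were drawn from 751 genes. This is a description, since all points share the same arrays and each correlation covers the arrays of both strains. The signals were not adjusted for place on the slide. The part of any strain difference, or of place on the slide, in these correlations was not tested. cyp-25A1 was nearest to cnd-1, which encodes a neuronal bHLH transcription factor (Pearson r = 0.991), and to the C-type lectin gene clec-226 (r = 0.989). cyp-34A5 was nearest to the F-box gene fbxa-1 (r = 0.983) and F32B4.1 (r = 0.968), and cyp-35C1 to bath-15 (r = 0.975) and F10A3.4 (r = 0.957). cyp-14A1 was nearest to F35C11.2 (r = 0.985) and the acyltransferase-family gene oac-15 (r = 0.980). cyp-13A1 was nearest to the chemosensory receptor gene srsx-14 (r = 0.978) and C07D8.2 (r = 0.973), and cyp-33C5 to the bZIP transcription factor gene zip-10 (r = 0.976) and C45G9.8 (r = 0.965). No other P450 gene was among these nearest genes. C45G9.8 shares slide row 1 with cyp-33C5, and C07D8.2 shares row 6 with cyp-13A1. The other nearest genes lie in other slide rows than their P450 gene.

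The other steps of foreign-compound handling were compared through a list of electron donors, conjugating enzymes, transporters and receptors. Enzyme and transporter families were mostly taken whole by gene symbol, so a listed gene, such as pmp-3, need not act on foreign compounds. Of 17 listed genes that have a row in the authors' table, 14 had a spot of their own, 2 with higher and 12 with lower means in the mutants, and 0 passed over all spots (limma, smallest adjusted p = 0.290). At an unadjusted p under 0.05 there were 0 higher and 6 lower genes among the 14. Among the 781 named spots 232 were higher and 268 lower, and of the table's spots 29.7% were higher and 34.4% lower. The median log2 difference was -0.73, beside -0.52 over all named spots. The remaining 3 genes, gst-7, gst-21 and pmp-1, share averaged values with another gene in the table and were not tested.

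The electron donors of P450 enzymes include cytochrome b5. cytb-5.1 was 1.78-fold and cytb-5.2 1.54-fold lower (limma adjusted p = 0.686 for each). The local position adjustment gave values 1.52-fold and 1.42-fold lower. The strains overlapped for cytb-5.1 and not for cytb-5.2. The P450 reductase emb-8 has no named row.

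UDP-glucuronosyltransferases, which attach a sugar to the products of P450 enzymes, had 7 members, 2 with higher and 5 with lower means. ugt-8 was 2.27-fold and ugt-54 2.23-fold lower, and ugt-19 was 1.44-fold and ugt-51 1.28-fold higher (limma adjusted p from 0.586 to 0.737 for these). ugt-8 and ugt-54 lie in slide rows 1 and 2, and after the local position adjustment their means were 1.39-fold and 1.495-fold lower. ugt-19 and ugt-51 lie in rows 12 and 10 and were then 1.11-fold and 1.15-fold higher. The glutathione S-transferase genes gst-12 and gst-35 were 1.46-fold and 1.49-fold lower (limma adjusted p = 0.686 for each), and 1.51-fold and 1.12-fold lower with the adjustment.

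Among ABC transporters, which move compounds across membranes, pmp-3, of the peroxisomal membrane protein-related subfamily, was 4.06-fold lower (limma adjusted p = 0.290). The multidrug-resistance protein gene mrp-6 was 2.67-fold lower (limma adjusted p = 0.444), and the P-glycoprotein gene pgp-7 1.54-fold lower (limma adjusted p = 0.698; n = 3 mutants). pmp-3 and mrp-6 lie in slide rows 1 and 2, and after the local position adjustment their means were 2.32-fold and 1.85-fold lower. pgp-7, in row 8, was then 2.01-fold lower. The list of short-chain and aldehyde dehydrogenases, flavin monooxygenases, sulfotransferase, receptor pathway and xenobiotic nuclear receptors had 0 named members.

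**Figure D4:**
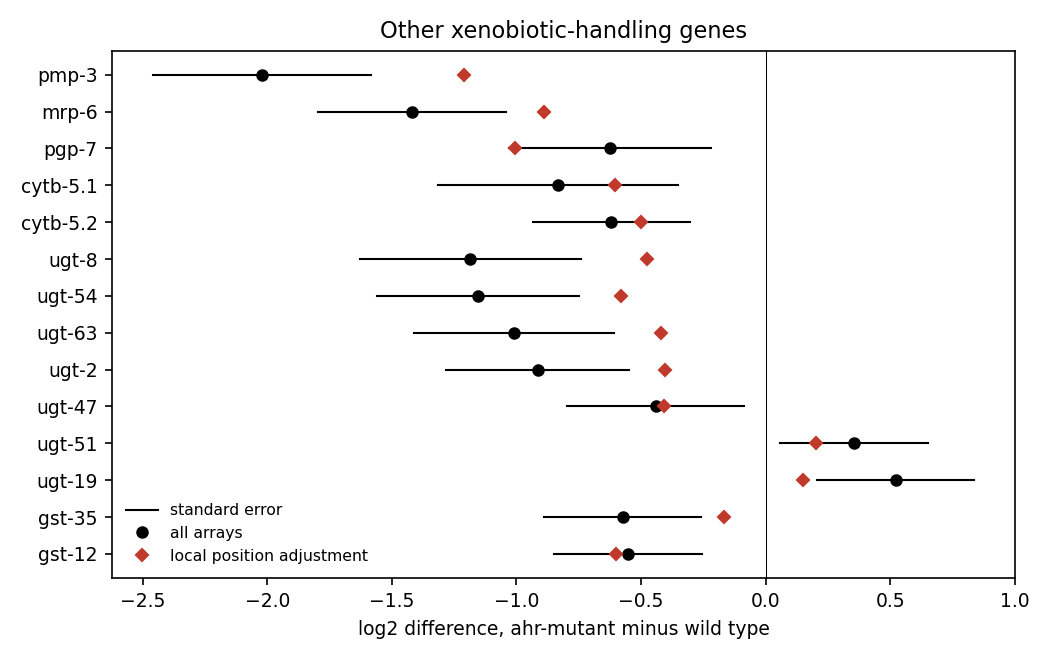
Log2 difference between the strains for the 14 other xenobiotic-handling genes with a spot of their own. Black points with lines give the value and its standard error, and red diamonds the value with the local position adjustment. The mean is lower in the mutants for 12 genes and higher for ugt-19 and ugt-51, with and without the adjustment.

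Many worm P450 genes are expressed in the intestine, but no intestinal marker gene is among the named spots, nor any of the neuronal and muscle markers. The 8 hypodermal markers, mostly cuticle collagens, had mean log2 signals of 16.22 to 16.69 in the mutants and 16.50 to 16.87 in the wild type, with 3 higher, 5 lower and 0 called. The sperm genes nspd-7, nspd-10 and msp-78 had mean log2 signals of 18.14 to 19.89 in the mutants and 16.42 to 17.58 in the wild type. The strains did not overlap in this mean, and 0 of the 3 genes were called. Among the table's spots with a value on every array, 79% also had strains that did not overlap. That share is over single spots, and no such share was computed for means of several genes. The part of these marker genes in the P450 differences was not tested.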

How the data were processed

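RNA of 4 ahr-mutant and 3 wild-type L1 samples was measured on 1-colour arrays (Cy3, per the labels). The authors deposited 1 linear intensity per spot for 23232 spots per array, and a table of 1290 rows that holds a ratio of signals. The sources used here do not give scanner, background treatment or build. Blank, 0 and negative signals were treated as missing. Table rows were matched to spots by value within 0.0001 on the log2 scale. 1080 rows matched 1 spot and 151 matched the mean of 2 spots. The rows of ahr-mutant replicate 1 were placed by print order (segments or windows of 100 spots or more, Pearson r with the mean of the other arrays 0.7 or higher, less 10 spots at each end), which placed 19628 spots. Of 380 positions known exactly from the table, 352 were found again by the alignment, which used print order, signal and a fixed range of shifts. Another 5 lay elsewhere and 23 were not placed. 1 segment with 745 spots, which holds those 5, was set aside. For cyp-34A5, cyp-25A1 and cyp-35C1 the position of this array comes from exact table values, and for the others from the alignment.

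Quantile normalization was applied across the arrays to the log2 of the deposited signals, before replicate 1 was re-placed. limma 3.58.1 in R 4.3.3 (lmFit, eBayes, two-sided, no covariate) compared the strains over the 22502 spots with at least 2 values per strain, with Benjamini-Hochberg adjustment. The local position adjustment subtracts the median deviation in a window of 15 by 15 spots. On simulated data, over 22502 spots, 26 of 100 spots with a log2 change of 2 and 88 of 100 with a change of 4 were called. At each of these sizes there were also 4 false calls. Gene names come from the annotation supplied with the table, and all 961 matched the WBcel235 gene table. All members were named, with the 2 named genes nearest to each, and, of each other family, the 2 highest and 2 lowest (all where fewer). The members and lists were chosen with earlier results of these data known. The number of arrays limits the precision.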

Additional observations from a re-analysis of the deposited data

How the results depend on the processing

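All 6 P450 genes kept their direction in all 16 alternatives, and 0 passed over all spots in those fitted on the array files. Log2 differences without 1 array lay between 1.44 and 2.26 for cyp-34A5, 1.16 and 1.64 for cyp-25A1, 0.49 and 0.83 for cyp-35C1, -1.75 and -1.09 for cyp-13A1, -1.63 and -0.82 for cyp-14A1, and -1.27 and -0.71 for cyp-33C5. The count at an unadjusted p under 0.05 went from 5 to 3 without wild type replicate 2, while that of all spots went from 1709 to 1193, and the smallest limma adjusted p of the P450 genes was then 0.881. With block medians subtracted it was also 3, and 1367 over all spots. The median of the 6 genes turned from -0.17 to 0.09 with the local position adjustment. In the authors' deposited table, fitted with limma over its 1290 rows alone, the 6 P450 genes with a spot of their own passed. So did 10 of the 14 other genes and 1090 of all rows. Those rows were compared on these same samples. cyp-25A4 was not counted in this fit. In that table cyp-13A1, cyp-14A1 and cyp-33C5 had no value for ahr-mutant replicate 1. The exact permutation test was run on the quantile-normalized signals only. By this test 5 P450 genes had an unadjusted p under 0.05, all at the smallest value possible. That value marks strains that do not overlap, as for 79% of the table's spots on all arrays. In the authors' deposited ratios the strains of cyp-34A5, cyp-13A1 and cyp-14A1 overlapped. Over all spots the count of calls was 2, and between 0 and 3 in the other fits on the array files. No paired analysis was possible because the strains share no sample number in the labels.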

Other observations

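The row of cyp-25A4 is 1 of 151 rows of the authors' deposited table whose values equal the mean of 2 spots after array scaling. The largest distance of any match was 2.76e-06 on the log2 scale, and the next nearest pair of spots lay at least 0.0068 away. In all 151 rows the same spots also gave the values of another row. A further 59 rows matched neither 1 spot nor the mean of 2.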
